A study of Mus musculus with 16 samples.

Results

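The 31 genes described here encode the enzymes that make cholesterol, the proteins that sense sterols and set how much is made, and those that take it up, move it, store it and export it. They are described in mouse granulosa cells (mGCs), which line the ovarian follicle and nourish its oocyte. They were chosen by name as a functional module, with earlier results of these data known. All 31 were found among the 57010 genes of the count tables. By role, 9 genes lead from acetyl-CoA to squalene, and 10 lead from squalene to cholesterol. A further 4 sense sterols or pass that signal on (the sterol-sensing group), and 8 serve uptake, transport, efflux and storage. RNA was sequenced in 16 libraries. The Con group held fresh mGCs of 5 sham-operated mice. The EM group held fresh mGCs of 5 mice with endometriosis, a disease in which uterine lining grows outside the uterus, modelled here by implanting endometrium of donor mice into the abdomen. The mice were 6 weeks old at surgery. Graft recipients were given estradiol every other day for 14 days, and the methods do not say whether sham mice were. Both groups had ovulation induced before collection, and each fresh library came from its own mouse. The PBS and EET groups both held mGCs of EM mice in culture, and no cultured cells of sham mice were analysed here. By their labels, the PBS libraries (n = 3) were grown for 24 h in DMEM/F12 medium that held 5% fetal bovine serum (FBS). The EET libraries (n = 3) received 100 nM 14,15-EET in addition for 24 h. A figure legend of the study instead describes 24 h of culture, then another 24 h with 14,15-EET or the same volume of PBS. 14,15-EET is an epoxide of arachidonic acid that soluble epoxide hydrolase breaks down. The cultured cells came from 6 mice and are described as paired replicates, but the labels do not say which numbers form a pair or how mice were pooled.

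Cells build cholesterol from acetyl-CoA through mevalonate, isoprenoid units, squalene and lanosterol. When membrane sterol runs low, SCAP carries the transcription factors SREBP-1 and SREBP-2 (genes Srebf1 and Srebf2) to the Golgi, where they are cut free to switch on genes of synthesis. INSIG proteins hold SCAP back when sterol is plentiful. Excess cholesterol is esterified for storage by SOAT1 or exported by ABCA1 and ABCG1. Granulosa and luteal cells use cholesterol as the starting material of steroid hormones, and in rodents much of it arrives from high-density lipoprotein through SR-BI, the product of Scarb1.

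Levels are given as CPM, read counts scaled to a common library size by TMM over all 16 libraries, and as RPKM, the same value per kilobase of exons, where genes are compared with each other. The libraries held 14229123 to 15999234 counted reads when fresh and 21384686 to 29482826 when cultured. The share from mitochondrial genes was 6.76% to 11.1% in Con, 8.09% to 21.8% in EM, 1.18% to 1.64% in PBS and 1.41% to 1.57% in EET. The highest share belonged to EM-3, which also had the highest sum of the 5 red cell markers (16049.5 CPM against 2438 to 5692 CPM in the other fresh libraries). All 10 granulosa markers were at 1 CPM or more in the fresh libraries. In the cultured libraries 8 of the 10 were, and both Amh and Cyp19a1, genes of the growing follicle, were below that in every cultured group (Cyp19a1 averaged 0.169 CPM in PBS and 288 CPM in EM). Summed oocyte markers were 98.7 to 755 CPM when fresh and at most 1.36 CPM in culture. In bulk RNA, fewer cells of a type and less RNA per cell cannot be told apart.

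Every one of the 31 genes was detected in all 16 libraries, and all passed the filter on low counts in each comparison. Per length, the most abundant genes of each role by the mean of the 4 groups were Acly (ATP citrate lyase, which supplies acetyl-CoA), Cyp51 (lanosterol demethylase), Scap and Scarb1. Acly, Scap and Scarb1 led their roles in every group. Among the genes beyond squalene, Cyp51 led in PBS (67.4 RPKM) and EET (64.3 RPKM), whereas Hsd17b7 led in Con (56.3 RPKM beside 23.1 for Cyp51) and EM (64.4 beside 24.4). Acly averaged 111 ± 18.03 RPKM in Con, 105 ± 13.5 in EM, 221 ± 6.03 in PBS and 213 ± 10.6 in EET (mean ± SD). Scarb1 averaged 109 ± 22.9, 142 ± 34.1, 156 ± 6.52 and 140.1 ± 5.29 RPKM in the same order. In Con the order by mean RPKM began with Acly, Scarb1 and Soat1 (96.2 ± 13.0), whose means differed by less than the SD of Acly, then Hmgcs1 (76.9 ± 21.2) and Fdps (74.8 ± 18.96), again inseparable by their SD. In PBS it began with Acly, Scap (162 ± 10.4), Scarb1 and Fdps (150.4 ± 11.8). Abcg1, the sterol exporter, was lowest in all 4 groups (1.19 to 2.02 RPKM).

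**Figure D1:**
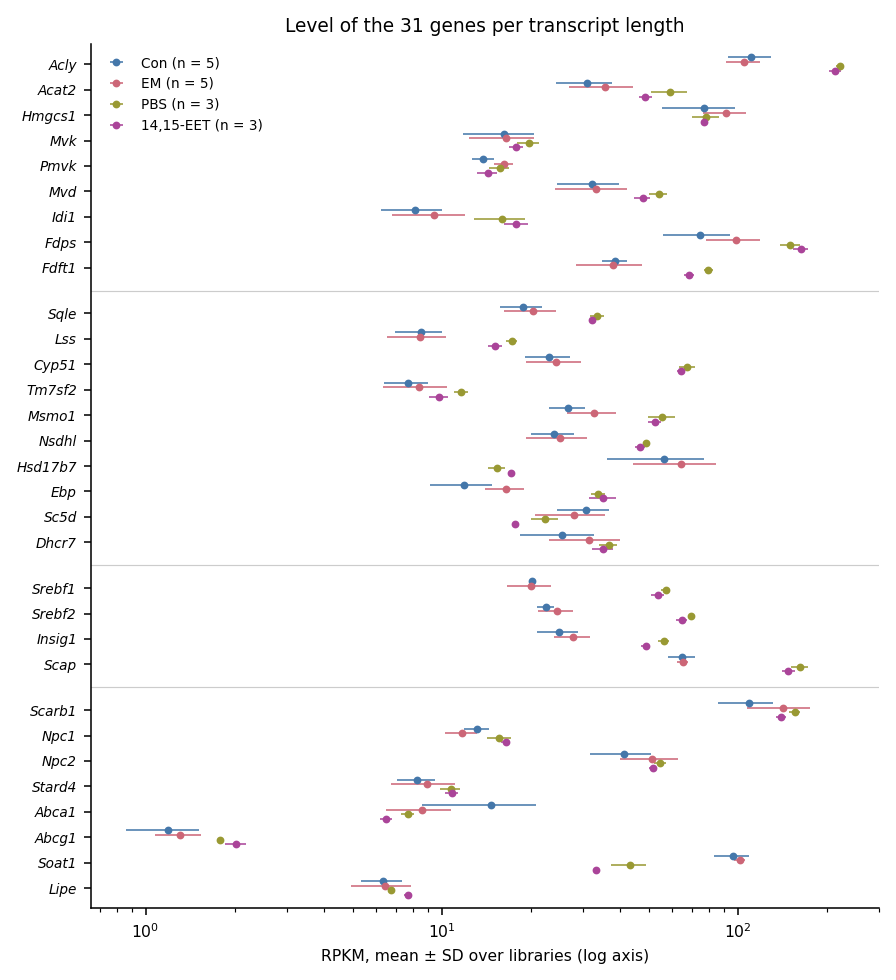
RPKM (mean ± SD, log axis) of the 31 genes in Con (n = 5), EM (n = 5), PBS (n = 3) and 14,15-EET (n = 3) mGCs, ordered by role and separated by grey lines. The sterol-sensing genes Srebf1, Srebf2, Insig1 and Scap sit further right in both cultured groups than in both fresh groups, and Soat1 and Hsd17b7 sit further left.

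Summed over a role group, the 9 genes from acetyl-CoA to squalene reached 1279 to 1956 CPM in Con, 1572 to 2160 in EM, 2857 to 2922 in PBS and 2719 to 2922 in EET. The 10 genes from squalene to cholesterol summed to 925 to 1470 CPM in Con, 1137 to 1539 in EM, 1603 to 1754 in PBS and 1562 to 1601 in EET. On this TMM scale both enzyme groups were higher in every cultured library than in any fresh one, while Con overlapped EM. For squalene to cholesterol the gap was narrow, from 1539 CPM in the highest fresh library to 1562 in the lowest cultured one. Other scalings of these sums were not tried. The 4 sterol-sensing genes showed the widest gap, with 759 to 935 CPM in the fresh libraries and 1945 to 2256 CPM in the cultured ones. The 8 genes of uptake, transport, efflux and storage gave 2218 to 2841 CPM in Con, 2323 to 3117 in EM, 2382 to 2470 in PBS and 2135 to 2240 in EET.

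**Figure D2:**
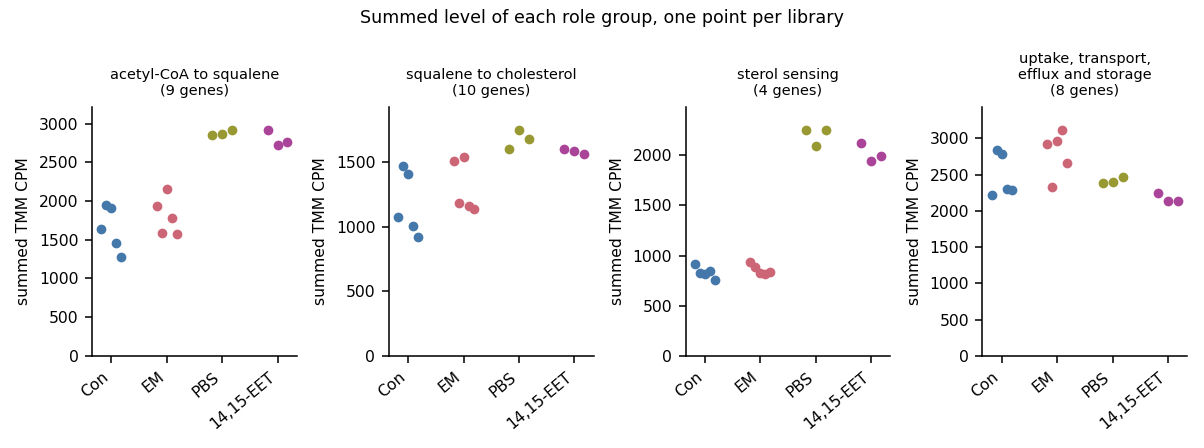
Summed TMM CPM of the genes of each role, 1 point per library. For sterol sensing the cultured libraries (1945 to 2256 CPM) lie above the fresh ones (759 to 935 CPM), and in the transport group EET (2135 to 2240 CPM) lies below PBS (2382 to 2470 CPM).

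The first comparison asked how mGCs of EM mice differed from those of sham mice. None of the 31 genes passed an adjusted p of 0.05 in edgeR's quasi-likelihood test, and none of the 17229 genes tested did (percent called 0, in either direction). DESeq2 called 116 genes, none of them among the 31. At an unadjusted p under 0.05 stood 3 of the 31 (9.68%) beside 9.44% of all genes. The log2 fold change of EM over Con was above 0 for 24 of the 31 and below 0 for 7, with a median of 0.10 beside -0.01 for all genes, and for no member did the 2 groups separate (1.74% of all genes did).

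Abca1, which exports cholesterol to apolipoprotein A-I, measured 110.2, 148, 131, 109 and 261 CPM in Con-1 to Con-5 and 126, 70.1, 76.5, 89.2 and 83.1 CPM in EM-1 to EM-5. Con-5 stood far above the other sham mice, and 4 of the 5 EM libraries lay below all of Con. The log2 fold change was -0.78 (SE 0.24, adjusted p = 0.433, unadjusted exact permutation p = 0.0238), and without Con-5 it was -0.49 (adjusted p = 0.862). Ebp, the sterol isomerase, measured 34.5, 31.1, 30.8, 21.6 and 19.6 CPM in Con and 34.8, 32.6, 47.4, 38.7 and 36.4 CPM in EM. Only EM-2 fell within the Con range, and the log2 fold change was 0.46 (SE 0.16, adjusted p = 0.469). Pmvk, phosphomevalonate kinase, measured 24.9, 24.7, 25.7, 21.4 and 21.7 CPM in Con and 28.6, 28.6, 29.5, 27.5 and 24.3 CPM in EM. EM-5 lay among the Con values, and the log2 fold change was 0.22 (SE 0.098, adjusted p = 0.520).

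Fdps, farnesyl diphosphate synthase, measured 345, 385, 375, 274 and 195 CPM in Con and 469.7, 274, 486, 450.4 and 396 CPM in EM, a log2 fold change of 0.39 (SE 0.20, adjusted p = 0.554). All EM libraries but EM-2 exceeded every Con library. Msmo1, the sterol C4 methyl oxidase, measured 177, 175, 189.6, 147 and 133 CPM in Con and 176, 213, 257, 195 and 159 CPM in EM (log2 fold change 0.28, SE 0.14, adjusted p = 0.556). Scarb1 measured 922, 1103, 1125, 808 and 667 CPM in Con and 1231, 812, 1326, 1589 and 1066 CPM in EM (log2 fold change 0.38, SE 0.20, adjusted p = 0.566). For both genes the groups overlapped. From Abca1 to Scarb1, the unadjusted exact permutation p ran from 0.0159 (Ebp) to 0.119 (Scarb1), with 0.0317 for Pmvk.

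**Figure D3:**
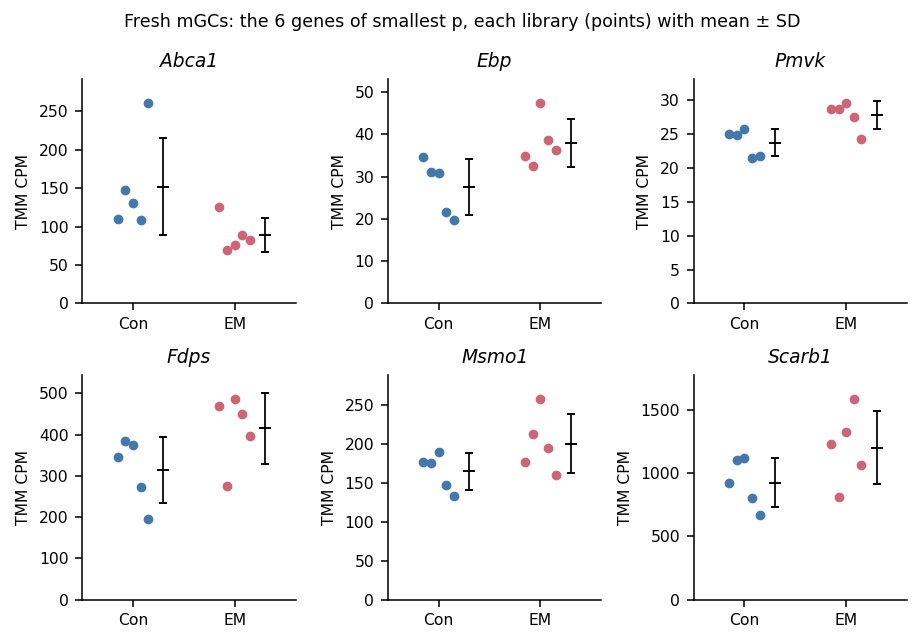
TMM CPM of the 6 genes of smallest p between Con and EM mGCs, with 1 point per mouse (5 per group) and the mean ± SD beside the points. Every pair of groups overlaps. For Abca1 the highest point is Con-5 at 261 CPM.

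Single mice weighed on these values. Among the 10 fresh libraries EM-3 was the highest for 16 of the 31 genes and for 13 of the 19 synthesis enzymes. Con-5 was the lowest for 14 of the 31 and for 9 of the 19. Leaving out either of them reduced the number of genes with a log2 fold change above 0 from 24 to 19. Markers of other cells differed between the groups too: the 8 neutrophil markers summed to 6.18 to 54.3 CPM in Con and 39.2 to 178 CPM in EM, and the 6 stromal markers to 1440.4 to 1584 CPM in Con and 577 to 1359 CPM in EM. Summed granulosa markers ranged from 11281 to 15163 CPM in Con and from 6575 to 20496 CPM in EM. The part of these differences in the values of the 31 genes was not tested.

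The second comparison asked what 14,15-EET did to cultured mGCs of EM mice. Most of the module was slightly lower with 14,15-EET, and 2 genes passed the test, both lower: Sc5d, the sterol C5 desaturase near the end of synthesis, and Soat1, which esterifies cholesterol for storage. No gene of the module was called higher. Of the 15050 genes tested, 184 were called (1.22%), 75 of them higher (0.498%) and 109 lower (0.724%), beside which 2 of 31 were called lower in the module. The log2 fold change was below 0 for 23 of the 31 genes, with a median of -0.08 beside 0.00 for all genes. The groups did not overlap for 14 of the 31 (45.2%), 11 lower and 3 higher, beside 17.3% of all genes. An unadjusted p under 0.05 was reached by 12 of the 31 (38.7%), 10 lower and 2 higher, beside 12.4% of all genes. Since the members were chosen with earlier results of these data known, these shares only describe the module.

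Sc5d measured 96.1, 119 and 111 CPM in PBS and 85.8, 87.8 and 84.3 CPM in EET. Every EET library lay below every PBS library, and the level was 20.8% lower (log2 fold change -0.34, SE 0.071, adjusted p = 0.0422). Soat1 measured 360.0, 434 and 473 CPM in PBS and 328, 329.8 and 320.1 CPM in EET. The EET libraries were close together and all below PBS, where PBS-1 was nearest to them, and the level was 22.5% lower (log2 fold change -0.37, SE 0.079, adjusted p = 0.0472). The exact permutation test of 3 against 3 libraries gave p = 0.1 for each, the smallest it allows. Neither call held without PBS-3, EET-1, EET-2 or EET-3 (adjusted p up to 0.253 for Sc5d and 0.270 for Soat1), and Soat1 was lost when at least 10 counts were required in every library.

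The other 4 genes of smallest p were also lower in every EET library than in any PBS library, without passing the adjusted threshold. Fdft1, squalene synthase, measured 350.1, 327 and 331 CPM in PBS and 301, 280.2 and 286 CPM in EET (log2 fold change -0.21, SE 0.049, adjusted p = 0.0681). Abca1 measured 75.0, 81.6 and 81.9 CPM in PBS and 70.1, 64.0 and 68.2 CPM in EET (log2 fold change -0.23, SE 0.057, adjusted p = 0.0774). Insig1, the retention factor for SCAP, measured 167, 181 and 174 CPM in PBS and 156, 145 and 152 CPM in EET (log2 fold change -0.20, SE 0.050, adjusted p = 0.0913). These 3 genes differed by 12.8% to 14.9% between the group levels. Tm7sf2, a sterol C14 reductase, measured 48.6, 51.4 and 54.0 CPM in PBS and 46.5, 40.2 and 42.5 CPM in EET (log2 fold change -0.25, SE 0.067, adjusted p = 0.114). Fdft1 overlaps Ctsb on the opposite strand and Tm7sf2 overlaps Vps51 on its own strand. Reads of these pairs may therefore have been lost, split or shared in counting.

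**Figure D4:**
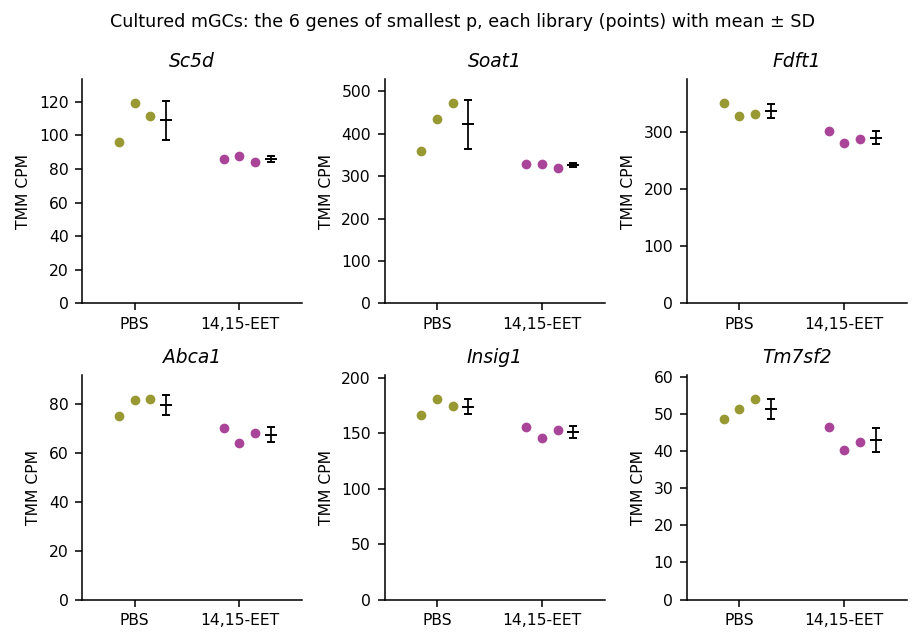
TMM CPM of the 6 genes of smallest p between PBS and 14,15-EET mGCs, with 1 point per library (3 per group) and the mean ± SD beside the points. All 3 EET points lie below all 3 PBS points in each panel. Axes start at 0, and the group levels differ by 12.8% to 22.5%.

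By role, 7 of 9 genes from acetyl-CoA to squalene, 8 of 10 from squalene to cholesterol, 4 of 4 sterol-sensing genes and 4 of 8 of the transport group had a log2 fold change below 0. Besides those described, Lss (lanosterol synthase, -0.18, adjusted p = 0.151), Acat2 (the cytosolic thiolase, -0.27, adjusted p = 0.178), Mvd (mevalonate diphosphate decarboxylase, -0.17, adjusted p = 0.261) and Scarb1 (-0.15, adjusted p = 0.264) had an unadjusted p under 0.05. Acat2 has the close paralog Acat3 in the mouse, so its reads are uncertain. In the opposite direction stood Lipe, the hormone-sensitive lipase that frees stored cholesterol, at 38.7, 40.5 and 39.9 CPM in PBS and 46.8, 43.9 and 45.0 CPM in EET (log2 fold change 0.19, SE 0.057, adjusted p = 0.158). Hsd17b7, the sterol 3-keto reductase, measured 73.1, 83.9 and 77.9 CPM in PBS and 86.2, 88.6 and 88.4 CPM in EET (log2 fold change 0.17, SE 0.059, adjusted p = 0.249).

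Among the 6 cultured libraries EET-2 was the lowest for 15 of the 31 genes. Summed granulosa markers were 5731 to 6310 CPM in PBS and 5117 to 5577 CPM in EET, without overlap, and smooth muscle markers were 570.5 to 767 CPM in PBS and 499.6 to 578 CPM in EET. Macrophage markers summed to at most 28.9 CPM in either group. The part of these differences in the module's values was not tested. With the replicate number as a block, 4 genes of the module were called lower (Acat2, Fdft1, Sc5d and Soat1). Of all 15050 genes tested, 173 were called lower and 168 higher, 341 in all. The labels do not say that equal numbers mark a pair.

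In lists of other genes of sterol and lipid metabolism, no call fell among 11 other genes of SREBP processing, 13 of side branches of the pathway, 20 of fatty acid synthesis or 10 of steroid hormone synthesis. Arl4c, a small GTPase that the sterol receptor LXR induces, measured 22.7, 23.9 and 25.0 CPM in PBS and 15.8, 15.3 and 15.3 CPM in EET, and fell by 0.62 on the log2 scale (SE 0.075, adjusted p = 0.00219; 1 of 13 LXR targets and efflux genes called). Of those 13 genes, 8 had a log2 fold change above 0 and 5 below, with a median of 0.10. Cav1, caveolin-1 of cholesterol-rich membrane pits, measured 285, 309 and 306 CPM in PBS and 386, 411 and 405 CPM in EET (log2 fold change 0.42, SE 0.052, adjusted p = 0.00227; 1 of 20 lipoprotein uptake and transport genes called). Plin4, a lipid droplet coat protein, measured 208, 184 and 203 CPM in PBS and 249, 237 and 254 CPM in EET (log2 fold change 0.32, SE 0.054, adjusted p = 0.0109; 1 of 14 lipid droplet genes, of which 11 were tested), a call that was lost without EET-3 (0.30, adjusted p = 0.118). None of the genes of these lists was called between EM and Con.

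The third comparison set the PBS cultures beside the fresh cells of EM mice. Culture, serum, the experiment and the sequencing cannot be told apart here. Of the 17301 genes tested 11937 were called (69.0%), 5381 higher (31.1%) and 6556 lower (37.9%). In the module 18 genes were higher in culture, 2 were lower and 11 were not called, and the median log2 fold change was 0.58 beside -0.11 for all genes. The groups did not overlap for 20 of the 31 (64.5%), close to the 66.4% of all genes, and an unadjusted p under 0.05 was reached by 21 of the 31 (67.7%) beside 71.8% of all genes. Scaling mattered for the count: under upper-quartile normalization the median of all genes moved to -0.36. There 12 genes of the module were called higher and 5 lower (3884 and 8040 of all genes). The module's median was 0.69 above that of all genes under TMM, RLE and upper-quartile scaling. Scaling shifts all genes nearly alike, so this gap could hardly move and is no check on the scaling.

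The sterol-sensing genes all rose. Srebf1 measured 131, 129, 106, 83.4 and 114 CPM in EM and 325, 309.6 and 332 CPM in PBS, 2.82-fold higher (log2 fold change 1.49, SE 0.14, adjusted p = 1.12e-05). Srebf2 measured 213, 182, 156, 154 and 174 CPM in EM and 507, 487 and 504 CPM in PBS, 2.80-fold higher (log2 fold change 1.49, SE 0.12, adjusted p = 5.54e-06). The lowest PBS library exceeded the highest EM library for both. Scap measured 505, 475, 469, 511 and 465 CPM in EM and 1257, 1118 and 1245 CPM in PBS (log2 fold change 1.29, SE 0.12, adjusted p = 8.71e-06). Insig1 rose by 0.99 on the log2 scale. Srebf1 overlaps Rai1, a protein-coding gene of the opposite strand.

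Of the enzymes, 6 of 9 up to squalene and 7 of 10 beyond it were higher in culture. Cyp51 measured 110.3, 110.5, 143, 89.6 and 85.7 CPM in EM and 285, 319 and 288 CPM in PBS, 2.72-fold higher (log2 fold change 1.44, SE 0.16, adjusted p = 4.03e-05). It overlaps Akap9 on the opposite strand. Acly measured 618, 496, 638, 541 and 479 CPM in EM and 1184, 1131 and 1187 CPM in PBS (log2 fold change 1.05, SE 0.14, adjusted p = 0.000122). The groups did not overlap for either gene. Hmgcs1, which makes HMG-CoA, was at 415, 355, 495, 489.8 and 348 CPM in EM and 322, 398 and 356 CPM in PBS and was not called (log2 fold change -0.25, adjusted p = 0.195). Sc5d was not called either (-0.35, adjusted p = 0.137). Both were called lower under upper-quartile scaling (adjusted p = 0.0168 for Hmgcs1 and 0.0164 for Sc5d) and with at least 10 counts in every library, and Sc5d also with the replicate block and with EET in place of PBS.

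Hsd17b7 went the other way. It measured 490.3, 214, 281, 308 and 350.3 CPM in EM and 73.1, 83.9 and 77.9 CPM in PBS, 76.5% lower (log2 fold change -2.09, SE 0.25, adjusted p = 5.25e-05). Besides its step in sterol synthesis this enzyme converts estrone to estradiol. Soat1 measured 1014, 1024, 972, 926 and 1029 CPM in EM and 360.0, 434 and 473 CPM in PBS, 58.1% lower (log2 fold change -1.26, SE 0.14, adjusted p = 3.09e-05). Con-1 to Con-5 were at 724, 1042, 1024, 958 and 964 CPM, so every fresh library lay above every cultured one. In the transport group only Npc1, the lysosomal cholesterol exporter, was called higher (log2 fold change 0.40, adjusted p = 0.0113), and 6 of 8 were not called. The Npc1 call was lost under upper-quartile scaling (0.15, adjusted p = 0.302), with at least 10 counts in every library, with the replicate block and without PBS-3 (0.32, adjusted p = 0.0729). Scarb1 was at 1389, 1295 and 1291 CPM in PBS and was not called (log2 fold change 0.11, adjusted p = 0.656), with a sign that turned under upper-quartile scaling (-0.14). With EET cultures in place of PBS, 16 genes of the module were called higher and 4 lower, the latter being Abca1, Hsd17b7, Sc5d and Soat1. Of all 17325 genes tested there, 5272 were called higher and 6620 lower.

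**Figure D5:**
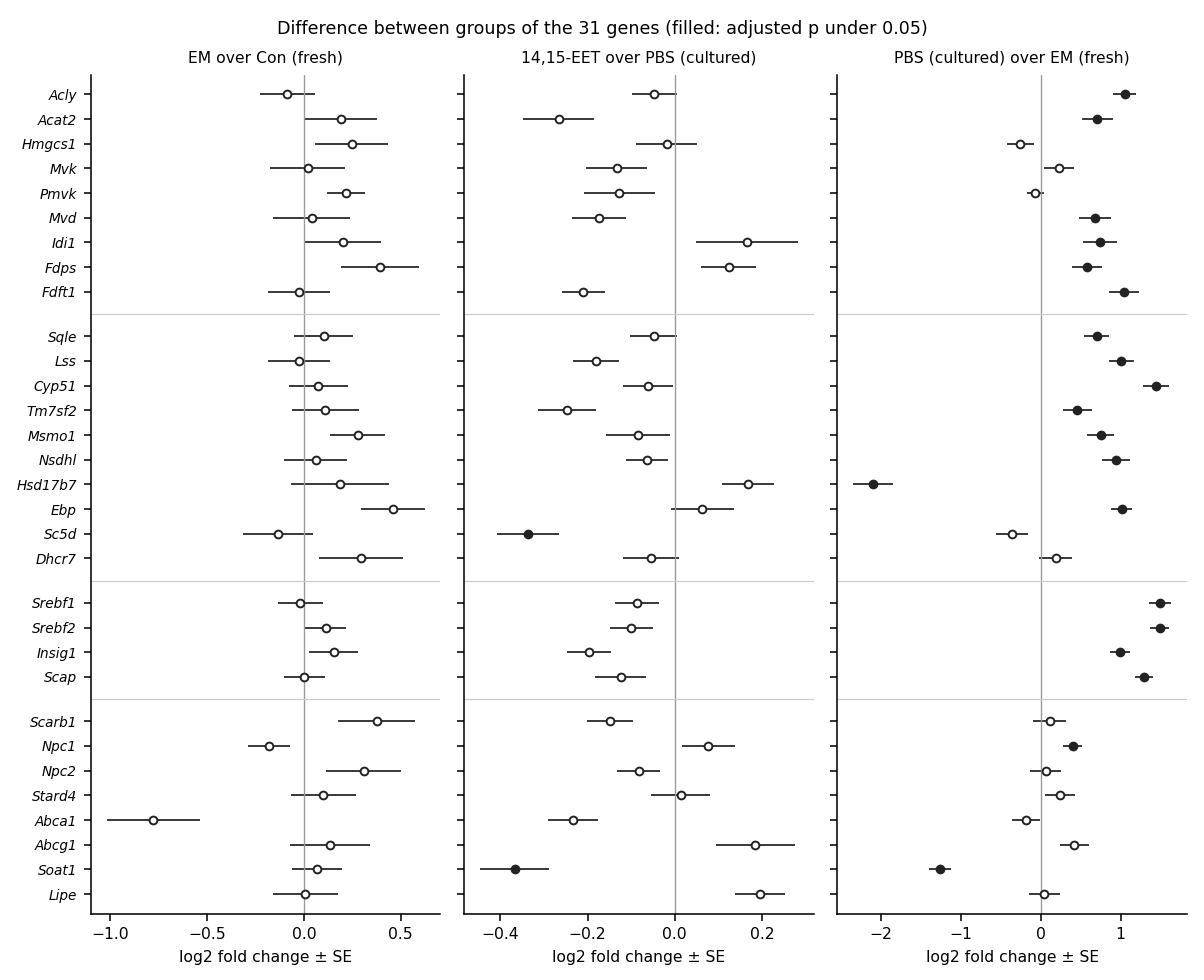
Log2 fold change ± SE of the 31 genes in the 3 comparisons, with filled points for an adjusted p under 0.05 and different horizontal scales in the 3 panels. No point is filled for EM over Con, 2 are for 14,15-EET over PBS (Sc5d and Soat1), and 20 are for PBS over EM, of which Hsd17b7 and Soat1 lie left of 0.

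Promoter windows from 250 bases before to 50 bases after the annotated start were read from RefSeq (GRCm38.p6) for 24 of the 31 genes. The 150 bases before the start are printed 5′ to 3′ for 7 genes, so that genes with opposite differences can be set side by side: the sterol-sensing genes with a single annotated window (Srebf2 and Insig1), the enzymes that rose and fell most in culture (Cyp51 and Hsd17b7), the genes called with 14,15-EET (Sc5d and Soat1), and Hmgcs1 as the holder of a sterol regulatory element. Capitals mark the CCAAT box (CCAAT or, on the other strand, ATTGG) and the sterol regulatory element (TCACNCCAC on either strand).
Srebf2: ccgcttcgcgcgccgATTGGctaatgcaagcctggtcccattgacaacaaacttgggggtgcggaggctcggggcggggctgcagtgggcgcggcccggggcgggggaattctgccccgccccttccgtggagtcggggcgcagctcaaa
Insig1: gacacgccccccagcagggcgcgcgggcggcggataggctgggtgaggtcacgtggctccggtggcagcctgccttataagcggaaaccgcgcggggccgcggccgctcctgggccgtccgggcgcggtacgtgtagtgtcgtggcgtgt
Hmgcs1: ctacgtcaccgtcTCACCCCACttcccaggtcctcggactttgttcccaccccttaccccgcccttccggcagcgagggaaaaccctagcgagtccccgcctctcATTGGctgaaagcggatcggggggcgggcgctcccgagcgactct
Cyp51: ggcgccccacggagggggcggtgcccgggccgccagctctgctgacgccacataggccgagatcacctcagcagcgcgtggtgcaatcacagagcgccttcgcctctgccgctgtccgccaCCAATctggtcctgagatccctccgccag
Sc5d: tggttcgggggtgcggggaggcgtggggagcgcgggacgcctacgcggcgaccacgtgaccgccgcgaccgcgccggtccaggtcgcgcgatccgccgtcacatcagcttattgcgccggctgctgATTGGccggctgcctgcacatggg
Hsd17b7: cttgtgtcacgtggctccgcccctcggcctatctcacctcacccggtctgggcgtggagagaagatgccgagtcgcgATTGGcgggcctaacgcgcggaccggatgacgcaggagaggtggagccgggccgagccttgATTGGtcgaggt
Soat1: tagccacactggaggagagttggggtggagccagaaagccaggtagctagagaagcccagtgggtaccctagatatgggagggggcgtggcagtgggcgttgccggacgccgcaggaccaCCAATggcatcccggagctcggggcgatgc
Their places are chr15:82147119-82147268, plus strand for Srebf2, chr5:28071262-28071411, plus strand for Insig1, chr13:119690201-119690350, plus strand for Hmgcs1, chr5:4104698-4104847, minus strand for Cyp51, chr9:42264301-42264450, minus strand for Sc5d, chr1:169969206-169969355, minus strand for Hsd17b7, chr1:156474329-156474478, minus strand for Soat1. Counting a gene that held the letters in any of its windows, the CCAAT box, a binding site of the factor NF-Y, was present in 20 of the 24 genes (83.3%), beside 41.1% of the 27025 genes with a window and 42.4% of the tested ones among them. The GC box (GGGCGG or its complement) lay in 23 of 24 (95.8%), beside 38.2% and 64.2%. The E-box CACGTG lay in 7 of 24 (29.2%), beside 8.09% and 11.1%. The letters of the sterol regulatory element were found in 1 of 24 (4.17%), Hmgcs1, beside 1.44% and 1.52%. CCAAT boxes were present before the start both of Srebf2 and Cyp51, which were higher in culture, and of Hsd17b7 and Soat1, which were lower. A match of letters is not evidence of a bound site, and a window without one says nothing of the factor.

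Other lists of lipid genes held calls of both directions in culture, as did all genes (31.1% higher and 37.9% lower). Of 11 other genes of SREBP processing 7 were higher and 1 lower, of 20 fatty acid synthesis genes 10 were higher and 6 lower, and of 13 LXR targets and efflux genes 6 were higher and 4 lower. Of 20 lipoprotein uptake and transport genes 9 were higher and 4 lower, of 12 tested genes of side branches 4 were higher and 3 lower, and of 12 tested lipid droplet genes 4 were higher and 6 lower. Scd1, the stearoyl-CoA desaturase, measured 44.6, 45.4, 51.7, 45.8 and 38.4 CPM in EM and 329.7, 422 and 394 CPM in PBS (log2 fold change 3.06, SE 0.13, adjusted p = 1.42e-07). Cav1 measured 50.2, 28.4, 82.6, 102 and 42.5 CPM in EM and 285, 309 and 306 CPM in PBS (log2 fold change 2.27, SE 0.35, adjusted p = 0.000262). Of the 10 genes that turn cholesterol into steroid hormones 1 was higher and 5 lower. Por, the electron donor of microsomal P450 enzymes, rose by 1.85 on the log2 scale (adjusted p = 9.21e-07). Cyp19a1, aromatase, was at 139 to 622 CPM in EM and at most 0.374 CPM in PBS. Cyp17a1, which makes androgens and is a theca marker, was at 138 to 289 CPM in EM and at most 0.109 CPM in PBS. The 7 theca markers together did not fall, with sums of 4857 to 9872 CPM in EM and 9064 to 10410 CPM in PBS. Among them Aldh1a1 averaged 432 CPM in EM and was at 3536 to 4270 CPM in PBS, while Insl3 and Gli1 were lower in PBS. Akr1c18, which inactivates progesterone in luteal cells, was at 32.0 to 574 CPM in EM and at most 2.29 CPM in PBS. Summed neutrophil markers were 39.2 to 178 CPM in EM and 0.600 to 1.37 CPM in PBS, with 5 of the 8 at 0 in every PBS library, and summed red cell markers were 2438 to 16049.5 CPM in EM and at most 0.219 CPM in PBS, with 3 of the 5 at 0. Macrophage, lymphocyte, endothelial, stromal, oocyte and granulosa sums were also lower in every PBS library than in any EM library. Smooth muscle markers were higher, with sums of 98.3 to 251.9 CPM in EM and 570.5 to 767 CPM in PBS. The 5 luteal markers, Akr1c18 among them, summed to 1086.2 to 1787.7 CPM in EM and 1770.3 to 2065.8 CPM in PBS. Of these, Parm1 averaged 76.7 CPM in EM and 1762 CPM in PBS. The part of these cells in the module's values was not tested.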

How the data were processed

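RNA of 16 libraries of mouse granulosa cells was prepared with a stranded mRNA kit (polyA RNA). Per the labels, the submitters' processing notes name fastp, HISAT2, StringTie and the GRCm39 build, without versions, and the strand setting of the counting is not given in the sources used here. The deposited values are raw read counts per Ensembl gene in 2 tables of 57010 genes each, made by the authors, and no per-sample column was left unused (0 such columns). Precision is limited by the number of replicates and by 14229123 to 29482826 counted reads per library.

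Groups came from the sample titles: Con and EM (n = 5 each), PBS and EET (n = 3 each). Where nothing says that cultures were separate, p-values measure the spread between these samples only. Each comparison was fitted on its 2 groups with edgeR 4.0.16 (R 4.3.3; TMM, filterByExpr, quasi-likelihood test, Benjamini-Hochberg adjusted p of 0.05 over all genes tested). The study used DESeq2, which here (version 1.42.0) was an alternative, along with RLE and upper-quartile scaling, other filters, a replicate block and leaving out each library. Levels are TMM CPM over all 16 libraries, and RPKM divides them by exon lengths of GENCODE vM21 (GRCm38), found for 31 of 31 genes. The exact permutation test was two-sided. Reads of overlapping genes and paralogs may be lost, split or shared.

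The members and lists were chosen with earlier results of these data known. All members could be named. Per-library values were given for members called between EM and Con or EET and PBS, filled up to 6 by smallest p, for up to 5 called members in each direction between PBS and EM, by size and without overlap (only 2 fell), and for the most abundant member of each role. For other lists, called genes were named, or the 3 largest each way between PBS and EM. Same-numbered PBS and EET libraries deviated from their group means with correlations of 0.06, 0.10 and -0.02, and the fit without a block was kept. The fitting script was tested on simulated data.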

Additional observations from a re-analysis of the deposited data

Results flagged for a closer look

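Within the groups of 5 fresh libraries, 4 of 62 combinations of gene and group held a library that stood apart by Dixon's test, where chance flags about 1 in 20. Abca1 reached 261 CPM in Con-5, beside 109 to 148 CPM in the other Con libraries, and Sc5d reached 199 CPM in EM-3, beside 109 to 135 CPM in the other EM libraries. Con-1 gave the other 2: Mvk, mevalonate kinase, was at 63.4 CPM there, beside 34.1 to 41.9 CPM, and Soat1 was at 724 CPM, beside 958 to 1042 CPM.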

How the results depend on the processing

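Between EM and Con, the count of genes called moved from 0 to 116 with DESeq2, 4 without a filter and 2 with the replicate block, and to between 0 and 46 when single libraries were left out (46 without Con-3), with no member called in any of these. Members with a log2 fold change above 0 numbered 19 to 25 when single libraries were left out. Between EET and PBS, the count of genes called moved from 184 to 322 with DESeq2, 662 without a filter, 341 with the replicate block and between 48 and 436 with single libraries left out. Members called lower numbered 5 with DESeq2 (Abca1, Fdft1, Insig1, Sc5d and Soat1), 7 without a filter, 1 with at least 10 counts in every library, 4 with the replicate block, and 0 to 4 with single libraries left out, 0 without PBS-3, EET-1, EET-2 or EET-3. Of all genes, 189 were called lower with DESeq2 and 335 without a filter, of the 26984 in each of those fits. With at least 10 counts in every library 108 of 13999 were called lower, and with the block 173 of 15050. Leaving out single libraries gave 26 to 214 called lower. Members called higher numbered 0 to 2, 2 (Hsd17b7 and Idi1) without PBS-2, where 222 of all 15351 genes were called higher. Between PBS and EM, a minimum log2 change of 1 in either direction left 7214 of 17301 genes called, 2277 higher and 4937 lower. Of the members it left 8 higher and 2 lower. Members called lower numbered 5 with upper-quartile scaling, 4 with at least 10 counts in every library and 4 with EET in place of PBS. Of all genes, 8040 of 17301, 4441 of 13288 and 6620 of 17325 were called lower in the same order. The block left 16 members higher and 3 lower between PBS and EM, beside 4867 higher and 5939 lower of all 17301 genes. Apart from the changes shown, the cause was not tested. Of the genes named with values, Scarb1 between PBS and EM was the only one whose direction was reversed: its log2 fold change was -0.14 with upper-quartile scaling, -0.043 with at least 10 counts in every library, -0.059 with EET in place of PBS, and -0.031 to 0.22 with single libraries left out (-0.031 without EM-2), and it was not called in any of these. With 3 of the 6 cultured libraries correlating best with their own number, the block remains an alternative.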
